A study of Mus musculus with 10 samples.

Results

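The genes that make cholesterol and fatty acids were followed in jejunal epithelial cells of mice that lose the motor protein MYO5B. The set holds 33 of the 35275 genes in the expression table, each matched by its symbol, and all 33 averaged at least 0.1 FPKM in the 10 libraries (fragments per kilobase of a gene, relative to each library's total on genes), which was the minimum for testing. It consists of 8 genes that lead from acetyl-CoA to farnesyl and geranylgeranyl diphosphate, 11 that lead from squalene to cholesterol, 6 that sense or carry sterols or control this pathway, and 8 of fatty acid synthesis and its supply of acetyl-CoA and NADPH. Every mouse was an adult C57BL/6 male by its label with the genotype VillinCreERT2;MYO5Bflox/flox, so that the Cre recombinase and the floxed alleles were carried by the controls too, and tamoxifen activates this Cre in villin-expressing cells, which are those of the gut epithelium. The 3 control mice (mice 2, 4 and 5) received corn oil. The 4 MYO5B-knockout mice (mice 3, 5, 6 and 7) received 2 mg of tamoxifen and then vehicle by intraperitoneal injection, and the 3 LPA-treated MYO5B-knockout mice (mice 1, 4 and 5) received 2 mg of tamoxifen and lysophosphatidic acid (LPA, a signalling phospholipid) at 3 mg/kg. Cells were taken on day 4. Tamoxifen and the loss of MYO5B cannot be told apart in a comparison with control mice, and the label of LPA-treated mouse 1 names both the vehicle and LPA.

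Cells build cholesterol from acetyl-CoA through mevalonate, isoprenoid diphosphates and squalene, and build fatty acids from malonyl-CoA on fatty acid synthase. Most of these enzymes are under the transcription factors SREBP-2 (Srebf2) and SREBP-1 (Srebf1), which SCAP carries from the endoplasmic reticulum to the Golgi apparatus for cleavage when membrane sterol is low, and which INSIG proteins hold back when sterol is plentiful. The small intestine is a main site of sterol synthesis outside the liver, and its villus enterocytes absorb dietary lipid.

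The depth was 10949420 to 24470409 reads on genes per mouse, and 1 read on a 1 kb gene was worth 0.0409 to 0.0913 FPKM. The labelled tissue held its defining genes, since all 10 epithelial markers reached 1 FPKM in each group. Their summed level was between 5623 and 7763 FPKM in controls and between 8494 and 10917 FPKM in the MYO5B-knockout group. In the LPA-treated group it was between 9408 and 12102 FPKM, so that the controls lay below all other libraries. The part of this difference in the levels of the members was not tested. Myo5b itself measured 16.5, 32.0 and 26.1 FPKM in controls, between 10.5 and 13.6 FPKM in the MYO5B-knockout mice and between 10.3 and 11.7 FPKM in the LPA-treated mice, so that the controls lay above all other libraries. As libraries, control mouse 2 and MYO5B-knockout mouse 3 stood apart, with 12242 and 12601 genes detected against 17309 to 18267 in the other 8, and with 17.4% and 18.0% of reads on mitochondrial genes against 1.98% to 3.50%. MYO5B-knockout mouse 3 and LPA-treated mouse 1 had Xist at 8.41 and 15.1 FPKM and 0 reads on Y-linked genes, which goes against the label male. Where leaving out 1 of these libraries moved the fold change given for a member by over 1.5 times, the value without it is given beside it. The labels do not tie the mice to litters or batches, and p-values weigh a difference between groups against the spread between these mice.

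Promoter sequence was taken from a RefSeq table for GRCm38.p6, in which 27 of the 33 members were matched; the other 6 were not analysed for sequence here. In windows from 250 bases before to 50 bases after the start site, CACNCCAC, the core of the sterol regulatory element to which SREBP binds, was searched on both strands and was in 3 of the 27 windows (Acat2, Hmgcs1 and Insig1) and in 6.25% of 32807 promoters of the same length. The longer pattern with the bases AT before this core, which overlaps it, was in 0 of 27 and in 0.235% of all promoters. The CCAAT box, which binds NF-Y, a factor that works beside SREBP at many sterol genes, was in 20 of 27 windows, or 74.1%, against 37.4% of all promoters. A match is a description of letters and not a site shown to be bound. The window of Acaca lies 65766 bases from the start that the expression table lists for this gene. Further RefSeq starts lay at 523 bases from the listed start for Tm7sf2, 453 for Pmvk and -369 for Fasn, where a negative value is upstream. Where a gene had several promoters, the nearest to the listed start was used. Pmvk, Dhcr7 and Me1 had no CCAAT box in that window but did in another of their promoters. The sequences upstream of 4 members that lay higher in each MYO5B-knockout mouse than in each control mouse show the kinds of match found, 5′ to 3′ on the gene's strand, up to the base before the start in RefSeq or in the expression table, whichever comes first, with each match to CACNCCAC or CCAAT on either strand in capitals. They lie at chr17:12960748-12960975 on the minus strand for Acat2, chr13:119690101-119690350 on the plus strand for Hmgcs1, chr5:114444019-114444268 on the plus strand for Mvk and chr1:169969242-169969455 on the minus strand for Hsd17b7.
Acat2: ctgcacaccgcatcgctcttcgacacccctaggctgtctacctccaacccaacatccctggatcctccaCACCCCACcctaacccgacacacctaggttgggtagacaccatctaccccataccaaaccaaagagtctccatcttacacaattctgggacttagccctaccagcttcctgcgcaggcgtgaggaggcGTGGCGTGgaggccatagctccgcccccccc
Hmgcs1: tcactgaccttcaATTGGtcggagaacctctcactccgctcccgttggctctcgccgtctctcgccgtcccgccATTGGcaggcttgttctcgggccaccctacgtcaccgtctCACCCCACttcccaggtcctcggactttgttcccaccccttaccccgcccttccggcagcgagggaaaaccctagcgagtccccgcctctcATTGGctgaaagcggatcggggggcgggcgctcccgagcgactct
Mvk: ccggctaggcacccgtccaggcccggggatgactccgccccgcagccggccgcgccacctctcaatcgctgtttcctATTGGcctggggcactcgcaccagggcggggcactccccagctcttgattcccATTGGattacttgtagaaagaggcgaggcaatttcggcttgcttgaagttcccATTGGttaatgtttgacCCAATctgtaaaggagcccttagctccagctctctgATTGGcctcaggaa
Hsd17b7: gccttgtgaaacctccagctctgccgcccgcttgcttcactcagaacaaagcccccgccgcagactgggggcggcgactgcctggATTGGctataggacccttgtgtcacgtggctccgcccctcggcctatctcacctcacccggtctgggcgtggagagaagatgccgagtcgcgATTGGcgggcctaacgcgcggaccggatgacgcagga
The Acat2 stretch holds 2 core matches, 1 on each strand, and no CCAAT box. The Hmgcs1 stretch holds 1 core match and 3 CCAAT boxes, the Mvk stretch holds 5 CCAAT boxes, and the Hsd17b7 stretch holds 2.

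The comparison of MYO5B-knockout with control mice asks how the pathway stands after MYO5B loss. Of the 33 members, 2 rose in MYO5B-knockout mice, Acat2 of the mevalonate branch and Scd2 of the fatty acid branch, and 0 fell, at an adjusted p of 0.05 from limma over 15729 genes. Over all genes tested 1.13% were called higher and 0.884% lower. The other 31 members did not pass, and 12 of the 33 had an unadjusted p under 0.05, as did 17.6% of all genes. The median log2 fold change was 0.84 over the members and 0.29 over all genes tested, and 26 of 33 members had a positive value against 63.4% of all genes. For 11 members each MYO5B-knockout mouse lay above each control mouse, and for 0 members each lay below, whereas the groups did not overlap in these ways for 11.0% and 6.20% of all genes. One of the 11, Scd1, averaged 0.0746 FPKM in controls and passed the minimum through the other groups alone; without it the count was 10 of 32 members and the median 0.74. Summed over the 33 members, the level was between 622 and 748 FPKM in controls, between 967 and 1349 FPKM in the MYO5B-knockout group and between 1217 and 1409 FPKM in the LPA-treated group. In bulk samples, a different number of cells of a type and a different amount of RNA per cell cannot be told apart. Median-ratio scaling between libraries moved the median of all genes from 0.29 to 0.039 and that of the members from 0.84 to 0.55, with 23 of 33 positive. It turned the calls over all genes from 177 higher and 139 lower to 224 higher and 374 lower, and called 2 members higher, Hsd17b7 and Scd2, so that Acat2 lost its call and Hsd17b7 gained one.

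**Figure D1:**
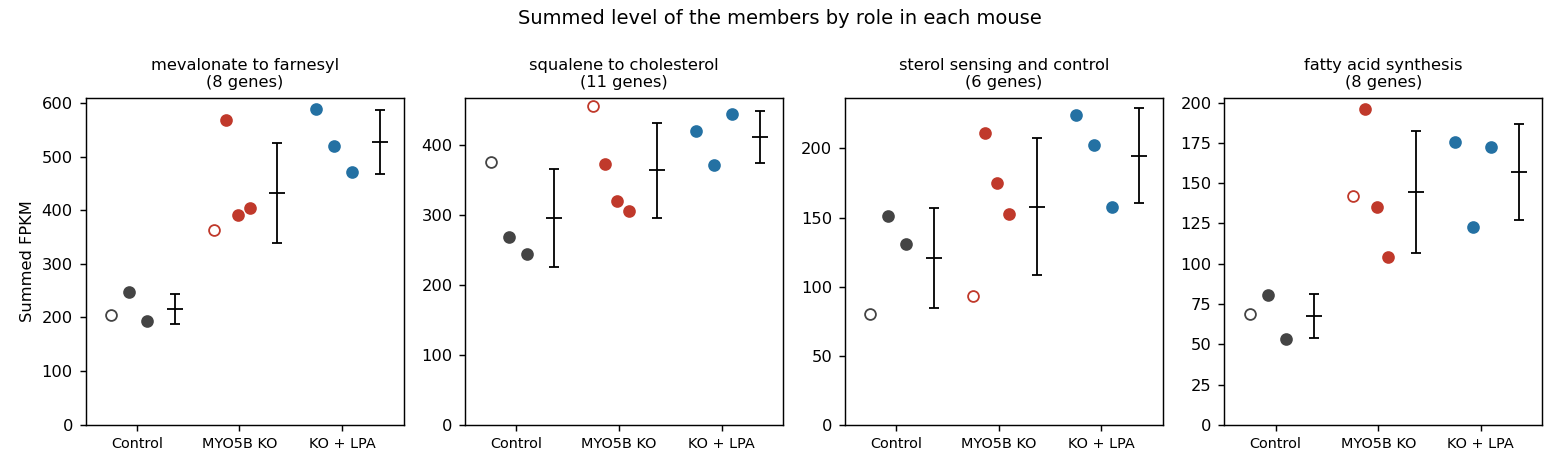
Summed level in FPKM (vertical axis, from 0) of the members of each role in each of the 10 mice, by group; bars show the mean and SD of 3 control, 4 MYO5B-knockout and 3 LPA-treated mice, and open circles mark control mouse 2 and MYO5B-knockout mouse 3. For the mevalonate and fatty acid branches each tamoxifen-treated mouse sits above each control mouse, while control and MYO5B-knockout mice overlap for the other 2 roles.

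In the mevalonate branch, 7 of 8 members had a positive log2 fold change, with a median of 1.02, and 1 passed the test. Acat2 (ENSMUSG00000023832, chr17:12942890-12960747 on the minus strand) encodes the cytosolic thiolase that joins acetyl-CoA into acetoacetyl-CoA, the first step of the pathway. It measured 9.94, 12.1 and 14.3 FPKM in controls, 41.3, 41.1, 24.3 and 27.2 FPKM across knockout mice 3, 5, 6 and 7, and 36.5, 33.4 and 38.3 FPKM in LPA-treated mice 1, 4 and 5. The lowest tamoxifen-treated mouse thus stood well above the highest control mouse. Against controls the log2 fold change in the MYO5B-knockout group was 1.43 (standard error, SE, 0.28, adjusted p = 0.0342 by limma), a 2.70-fold difference on the scale of FPKM + 0.1. The call was lost when any of control mice 2, 4 and 5 or MYO5B-knockout mice 5, 6 and 7 was left out. It was also lost after median-ratio scaling, with edgeR on recovered reads, and with only the 2 groups in the fit. Its related gene Acat3 did not exceed 0.188 FPKM in any library.

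Hmgcs1, the cytosolic synthase that makes HMG-CoA from the product of Acat2, was present at 53.4, 66.1 and 48.7 FPKM in controls versus 103, 138, 115 and 88.6 FPKM in the MYO5B-knockout group. The groups did not overlap, with a log2 fold change of 0.98 that missed the threshold (SE 0.24, adjusted p = 0.0670 by limma). Both kinases that follow were also separate between the groups without passing the test. Mvk, which phosphorylates mevalonate, was present at 15.4, 15.7 and 13.5 FPKM in controls versus 32.3, 36.1, 21.3 and 24.0 FPKM in the MYO5B-knockout group (log2 fold change 0.90, adjusted p = 0.117 by limma). Pmvk, which adds the next phosphate, was present at 41.6, 27.5 and 20.1 FPKM in controls versus 101, 65.7, 43.8 and 58.3 FPKM in the MYO5B-knockout group (1.17, adjusted p = 0.105 by limma). Its highest control value, in mouse 2, came close to its lowest knockout value, in mouse 6.

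Idi1, the isomerase that makes dimethylallyl diphosphate, had a log2 fold change of 2.17 without being called (SE 0.72, adjusted p = 0.147 by limma). It was present at 1.41, 8.13 and 3.96 FPKM in controls versus 7.15, 30.3, 23.6 and 14.5 FPKM in the MYO5B-knockout group, so that only MYO5B-knockout mouse 3 fell within the control range. Fdps, which makes farnesyl diphosphate, showed the same arrangement, with 32.8, 90.0 and 75.1 FPKM in controls versus 52.3, 218, 135 and 163 FPKM in the MYO5B-knockout group (1.06, adjusted p = 0.309 by limma), and a log2 fold change of 0.61 without control mouse 2. The remaining members of the branch did not share it. Mvd, the decarboxylase that gives isopentenyl diphosphate, was present at 43.7, 23.6 and 14.6 FPKM in controls versus 21.0 to 32.8 FPKM in the MYO5B-knockout group. Ggps1, which makes geranylgeranyl diphosphate, was present at 3.64 to 6.39 FPKM in controls versus 2.35 to 6.41 FPKM in the MYO5B-knockout group. Ggps1 overlaps Arid4b on the opposite strand, no strand setting is stated for the read counting, and Arid4b had 172% of its reads.

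**Figure D2:**
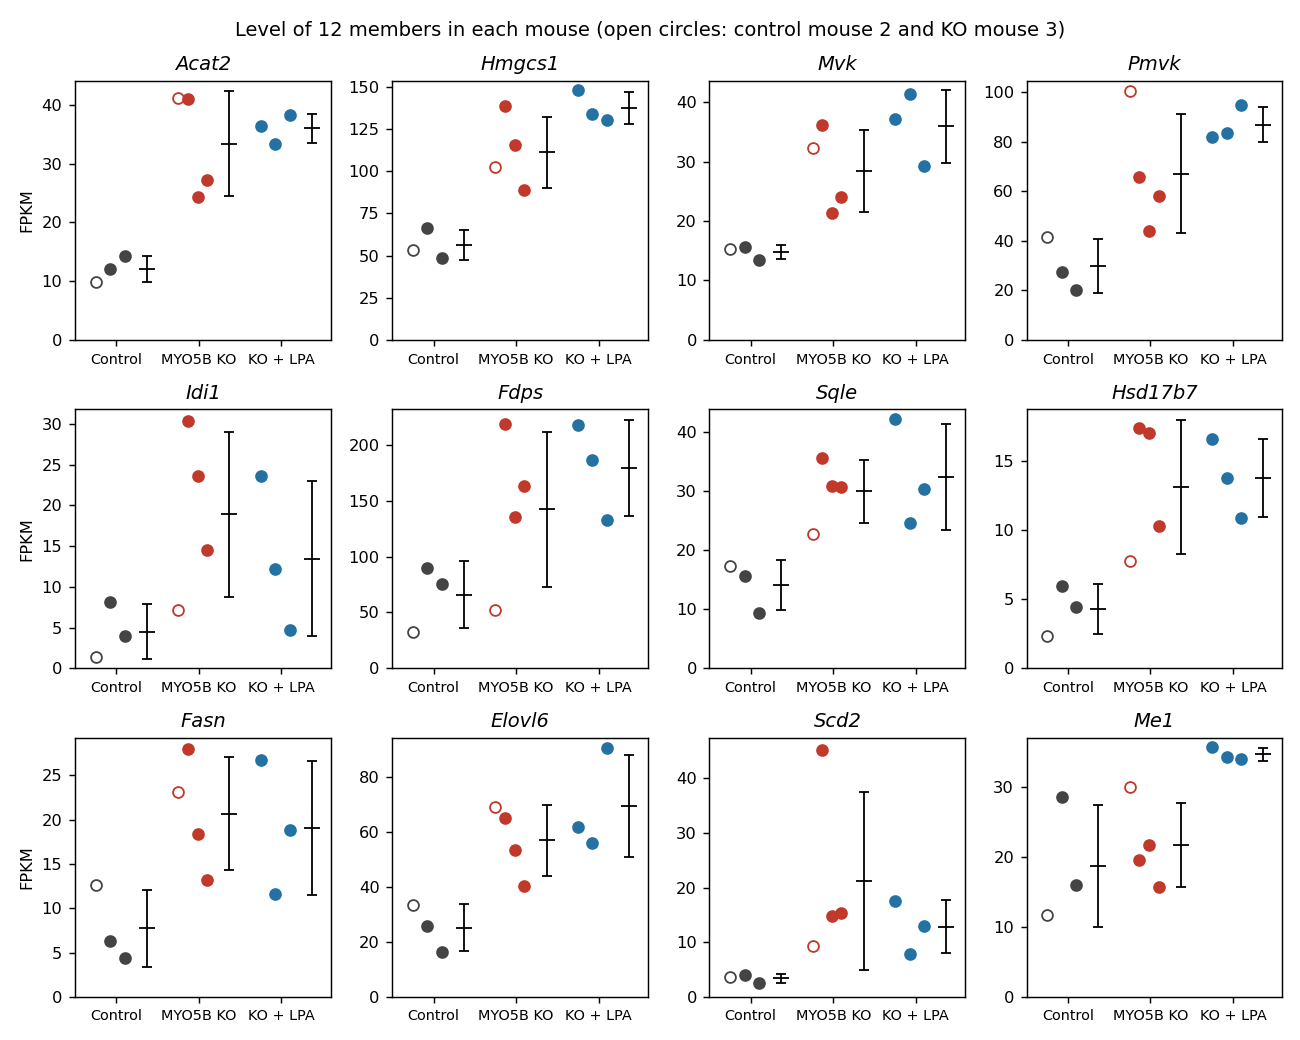
FPKM (vertical axes, from 0) of 12 members in each of the 10 mice, by group, with the mean and SD of each group; open circles mark control mouse 2 and MYO5B-knockout mouse 3. Acat2, Hmgcs1, Mvk, Pmvk, Sqle, Hsd17b7, Fasn, Elovl6 and Scd2 lie higher in each MYO5B-knockout mouse than in each control mouse, Idi1 and Fdps do so apart from mouse 3, and Me1 is separate only in the LPA-treated mice, at 34.0 to 35.7 FPKM.

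From squalene to cholesterol, 7 of 11 members had a positive log2 fold change, with a median of 0.45, and 0 passed the test. Hsd17b7, the reductase that removes a keto group during demethylation of the sterol ring, came nearest. It was present at 2.38, 5.99 and 4.47 FPKM in controls versus 7.78, 17.4, 17.1 and 10.4 FPKM in the MYO5B-knockout group, which did not overlap (log2 fold change 1.61, SE 0.41, adjusted p = 0.0713 by limma). On reads recovered from the FPKM, edgeR's quasi-likelihood test called it (1.37, adjusted p = 0.0348 by edgeR), together with Scd2, where edgeR called 1.14% of all genes higher. Sqle, the squalene epoxidase that commits squalene to sterols and a rate-limiting enzyme, was present at 17.3, 15.5 and 9.31 FPKM in controls versus 22.7, 35.5, 30.8 and 30.6 FPKM in the MYO5B-knockout group (1.12, adjusted p = 0.0971 by limma). Its groups also did not overlap.

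Another 3 enzymes had log2 fold changes of at least 0.84 with groups that overlapped through the libraries with few detected genes. Lss, which closes squalene epoxide to lanosterol, was present at 0.427, 2.77 and 2.43 FPKM in controls versus 0.901, 11.0, 7.55 and 4.44 FPKM in the MYO5B-knockout group (1.50, adjusted p = 0.401 by limma). Nsdhl, which acts in demethylation of the sterol ring, was present at 1.04, 10.4 and 7.93 FPKM and at 1.56, 22.0, 17.0 and 14.9 FPKM (1.10, adjusted p = 0.613 by limma). In both genes the lowest value of each group came from control mouse 2 or MYO5B-knockout mouse 3. Without control mouse 2 the log2 fold change was 0.72 for Lss and 0.10 for Nsdhl, and Nsdhl had 1.96 without MYO5B-knockout mouse 3, while leaving out both gave 1.43 for Lss and 0.96 for Nsdhl. Cyp51, the lanosterol demethylase, went the other way, with 86.6 FPKM in control mouse 2 against 25.0 and 19.8 FPKM in the other controls, and 116 FPKM in MYO5B-knockout mouse 3 against 44.5 to 62.7 FPKM in the others (0.84, adjusted p = 0.427 by limma). Its value became 1.49 when control mouse 2 was left out, 0.43 for control mouse 5 and 0.55 for MYO5B-knockout mouse 3.

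Fdft1, the squalene synthase, was likewise highest in these 2 libraries, at 122, 24.3 and 18.0 FPKM in controls versus 145, 48.2, 32.2 and 31.2 FPKM in the MYO5B-knockout group (log2 fold change 0.45, adjusted p = 0.787 by limma). Without MYO5B-knockout mouse 3 its log2 fold change was -0.049, without control mouse 5 it was -0.082, without control mouse 2 it was 1.30, while leaving out control mouse 2 together with MYO5B-knockout mouse 3 gave 0.80, so its direction rests on single libraries. Fdft1 also overlaps Ctsb on the opposite strand, which had 358% of its reads. Msmo1, a sterol methyl oxidase, was present at 44.5 to 62.3 FPKM in controls versus 52.4 to 99.8 FPKM in the MYO5B-knockout group (0.44, and 0.25 without MYO5B-knockout mouse 3). Ebp, the sterol isomerase, was between 36.0 and 55.2 FPKM in these 7 mice, and Sc5d, the sterol desaturase, between 23.0 and 58.7 FPKM, with overlapping groups. The most negative values were those of 2 sterol reductases, with overlapping groups. Dhcr7, the last enzyme of the Kandutsch-Russell route to cholesterol, was present at 6.18, 17.9 and 14.8 FPKM in controls versus 1.01, 12.7, 12.7 and 9.72 FPKM in the MYO5B-knockout group (-0.87, adjusted p = 0.630 by limma). Tm7sf2, a sterol reductase earlier in the pathway, was present at 4.11, 23.8 and 14.4 FPKM and at 1.77, 7.36, 8.46 and 11.2 FPKM (-0.90, adjusted p = 0.538 by limma), and it shares its strand and part of its span with Vps51, which had 135% of its reads. Without MYO5B-knockout mouse 3 the log2 fold change was -0.022 for Dhcr7 and -0.34 for Tm7sf2, without control mouse 2 it was -1.33 and -1.62, and without both -0.48 and -1.05. Leaving out control mouse 4 gave -0.37 for Tm7sf2.

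Of the 6 members that sense or carry sterol or control the pathway, 0 passed the test and for 0 did the groups separate, with a median log2 fold change of 0.39. Srebf2, the regulator of the sterol branch, was present at 13.7, 25.4 and 19.0 FPKM in controls versus 11.5, 44.2, 39.7 and 36.1 FPKM in the MYO5B-knockout group (0.64, adjusted p = 0.546 by limma). MYO5B-knockout mouse 3 was the lowest of these 7 mice, and the other 3 knockout mice lay above each control, so that the value was 1.08 without mouse 3 and 0.41 without control mouse 2. Srebf1, the regulator of the fatty acid branch, was present at 8.82, 15.2 and 18.2 FPKM and at 9.69, 39.8, 16.7 and 14.6 FPKM (0.38, adjusted p = 0.708 by limma). Its positive value rested on MYO5B-knockout mouse 5, without which it was -0.016, and it became 0.66 on leaving out MYO5B-knockout mouse 3 and 0.074 on leaving out control mouse 2. Rai1 on the opposite strand had 12.8% of its reads. Insig1, itself a sensitive target of SREBP, was present at 33.3, 57.8 and 44.5 FPKM and at 41.1, 74.7, 67.0 and 55.7 FPKM (0.40, and 0.20 without control mouse 2), and Scap at 8.23, 6.23 and 5.72 FPKM and at 9.56, 11.0, 9.32 and 8.21 FPKM (0.51). Scap therefore missed separation by 1 pair of mice, control mouse 2 and MYO5B-knockout mouse 7. Insig2 was present at 6.18 to 13.4 FPKM in controls versus 5.11 to 13.6 FPKM in the MYO5B-knockout group, and Stard4, a cytosolic carrier of cholesterol, at 10.1 to 32.8 FPKM and 16.4 to 30.6 FPKM. In both genes control mouse 2 and MYO5B-knockout mouse 3 held the lowest value of their groups.

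In the fatty acid branch, 7 of 8 members had a positive log2 fold change, with a median of 1.19. For 5 of the 8 each MYO5B-knockout mouse lay above each control mouse, where 11.0% of all genes did so. These 5 include Scd1, which passed the minimum through the other groups alone. Scd2 (ENSMUSG00000025203, chr19:44293676-44306864 on the plus strand), a stearoyl-CoA desaturase that makes monounsaturated fatty acids, was the second member called. It was present at 3.54, 4.07 and 2.52 FPKM in controls, at 9.40, 45.3, 14.7 and 15.4 FPKM in the MYO5B-knockout group and at 17.6, 7.89 and 13.0 FPKM in the LPA-treated group. Each tamoxifen-treated mouse lay above each control mouse, and MYO5B-knockout mouse 5 stood far above the others. The log2 fold change was 2.38 (SE 0.51, adjusted p = 0.0448 by limma), a 5.19-fold difference. As for Acat2, the call was lost on leaving out any of control mice 2, 4 and 5 or MYO5B-knockout mice 5, 6 and 7, and it was lost with only the 2 groups in the fit and with no filter on low values. Scd1, the desaturase that predominates in liver and fat, was barely present in these cells, with 0, 7 and 11 reads in controls versus 13, 256, 32 and 82 in the MYO5B-knockout group, which is at most 0.130 FPKM and between 0.246 and 3.07 FPKM (2.27, SE 0.85, adjusted p = 0.203 by limma). The fitted fold change at such levels is set largely by the 0.1 added before the logarithm, and its size is not compared with those of other members. Scd3 and Scd4, the other genes of this family, did not exceed 0.0536 FPKM.

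Fasn, the fatty acid synthase itself, was present at 12.6, 6.25 and 4.35 FPKM in controls versus 23.2, 28.0, 18.4 and 13.2 FPKM in the MYO5B-knockout group (log2 fold change 1.50, adjusted p = 0.110 by limma). Elovl6, which lengthens palmitate, was present at 33.4, 25.6 and 16.2 FPKM and at 68.9, 65.0, 53.3 and 40.2 FPKM (1.21, adjusted p = 0.0849 by limma). Acly, which cleaves citrate to cytosolic acetyl-CoA for both branches, was present at 5.24, 7.60 and 6.53 FPKM and at 7.92, 23.4, 18.5 and 12.6 FPKM (1.16, adjusted p = 0.221 by limma). In all 3 genes each knockout mouse lay above each control mouse, although none passed the test. Acaca, the carboxylase that makes malonyl-CoA, overlapped through MYO5B-knockout mouse 3, with 1.36, 1.57 and 0.937 FPKM against 1.46, 5.74, 4.08 and 2.15 FPKM (1.16, adjusted p = 0.309 by limma), and Gm11437 on the opposite strand had 15.5% of its reads. Acss2, which activates acetate, was present at 0.928 to 6.88 FPKM in controls versus 1.27 to 5.67 FPKM in the MYO5B-knockout group, and Gss on the opposite strand had 1130% of its reads. Me1, the malic enzyme that supplies NADPH, was present at 11.6, 28.5 and 15.9 FPKM and at 29.9, 19.6, 21.7 and 15.7 FPKM, with overlapping groups.

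**Figure D3:**
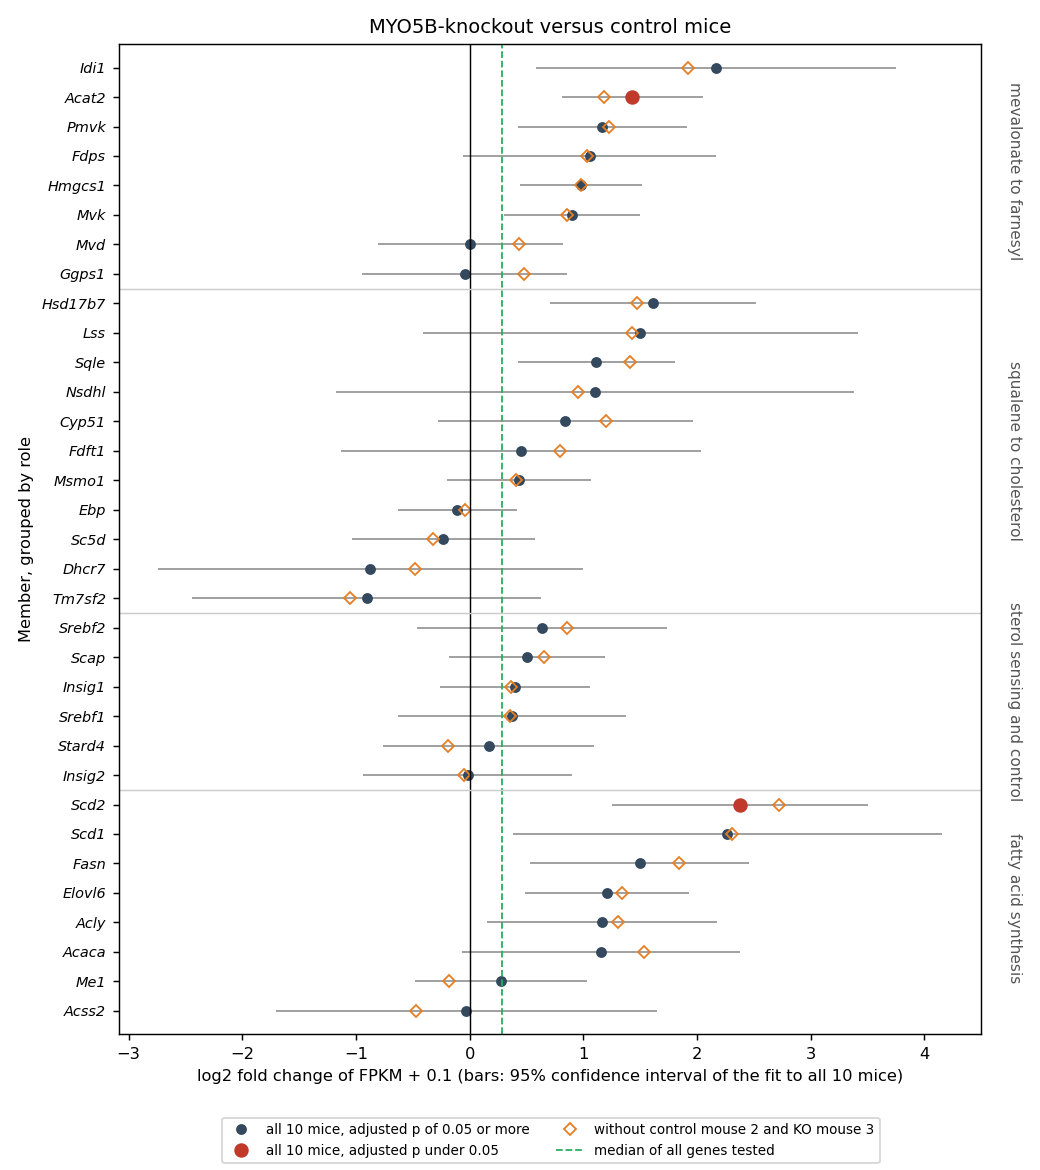
Log2 fold change of each member (rows, by role) between MYO5B-knockout and control mice, on the scale of FPKM + 0.1, with the 95% confidence interval of the fit to all 10 mice; red points have an adjusted p under 0.05, diamonds show the fit without control mouse 2 and MYO5B-knockout mouse 3, and the dashed line is the median of all genes tested, 0.29. Acat2 and Scd2 are the red points, and 26 of 33 points lie right of 0.

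The 2 libraries with few detected genes moved many of these values. Without them, 6 members were called higher in 3 MYO5B-knockout mice than in 2 control mice, where 2.56% of all genes were. These were Acat2 (log2 fold change 1.18), Pmvk (1.23), Hsd17b7 (1.47), Sqle (1.41), Cyp51 (1.20) and Scd2 (2.72), of which Acat2 and Scd2 were also called in all libraries. For 22 members the knockout mice then lay above the controls and for 5 below, where 35.5% and 20.5% of all genes did so. Between the 2 libraries themselves, with 1 mouse per group and so no test, 25 of 33 members were higher in MYO5B-knockout mouse 3 than in control mouse 2 and 8 were lower. Of the 15729 genes tested, 7627 (48.5%) were higher and 5759 lower, and the others were equal in both libraries. Set against the other mice of its own group, control mouse 2 deviated for the 33 members much as MYO5B-knockout mouse 3 did (Pearson's r = 0.81 over 33 genes, and 0.55 over all genes tested), a description across genes, which are not independent replicates, in libraries that share a low number of detected genes. Fdft1 and Cyp51 were high, and Nsdhl, Lss, Tm7sf2 and Acss2 low, in both. LPA-treated mouse 5, set against LPA-treated mice 1 and 4, deviated in the same direction for these genes. Its deviation was 1.14 for Fdft1, 0.43 for Cyp51, -2.05 for Nsdhl, -0.93 for Lss, -0.54 for Tm7sf2 and -0.36 for Acss2. Over the 33 members it correlated at 0.68 with each of the 2 libraries, and over all genes tested at 0.44 and 0.48. This library, with 17748 genes detected, stayed in the fits without the other 2. The part of the low gene detection in these values was not tested.

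**Figure D4:**
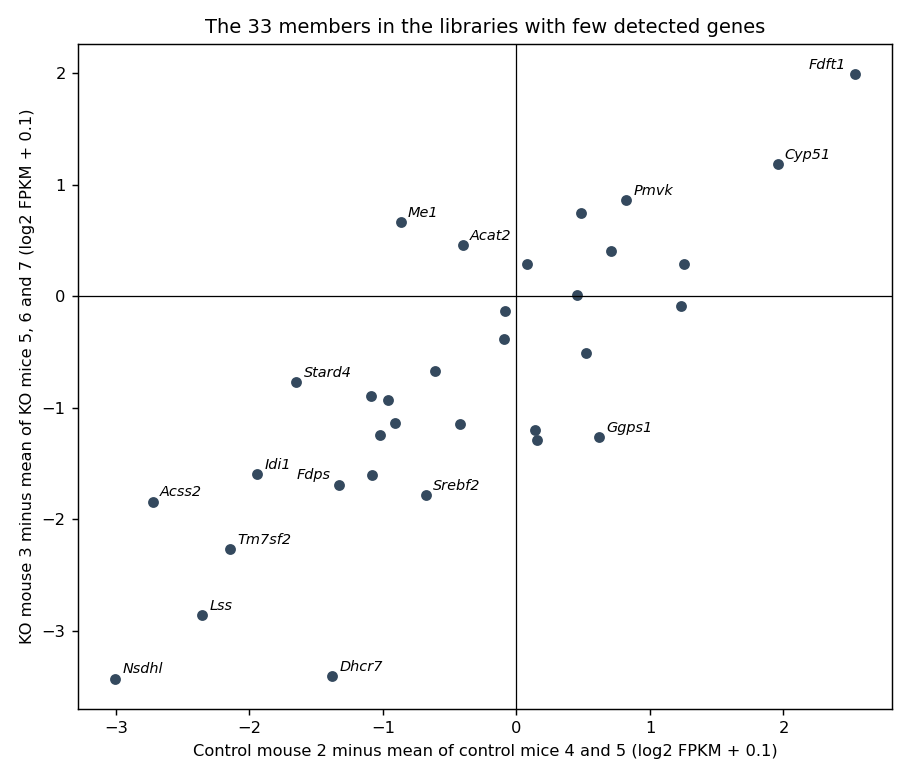
Deviation of control mouse 2 from the mean of control mice 4 and 5 (horizontal axis) and of MYO5B-knockout mouse 3 from the mean of MYO5B-knockout mice 5, 6 and 7 (vertical axis), in log2 of FPKM + 0.1, for each of the 33 members. The points run from the lower left (Nsdhl, Lss) to the upper right (Cyp51, Fdft1), with r = 0.81, and 26 of 33 have the same sign in both libraries. Of the 15729 genes tested, 12457 have the same sign, a similar share, with r = 0.55.

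Other genes of lipid synthesis and sterol handling were counted in lists chosen with earlier results of these data known. Of 18 tested genes of a list of further lipogenic and NADPH genes, 2 rose in MYO5B-knockout mice and 0 fell, with a median log2 fold change of 0.48. Among all genes tested, 1.13% were called higher and 0.884% lower. Mid1ip1, whose protein promotes the polymerization of acetyl-CoA carboxylase, was present at 14.9, 9.06 and 7.99 FPKM in controls versus 98.7, 41.1, 28.0 and 31.6 FPKM in the MYO5B-knockout group (2.08, adjusted p = 0.0427 by limma). Acsl3, which activates long-chain fatty acids, was present at 0.802, 4.64 and 4.74 FPKM and at 16.8, 32.7, 17.4 and 12.8 FPKM (2.77, adjusted p = 0.0456 by limma). The groups also separated without a call for Aacs, which was higher in MYO5B-knockout mice, and for 2 genes of this list that were lower, all named here after their values were seen. Over the list 3 genes thus separated higher and 2 lower, where 11.0% and 6.20% of all genes did so. Aacs was present at 7.79, 10.7 and 7.56 FPKM in controls versus 10.8, 27.8, 20.0 and 18.6 FPKM in the MYO5B-knockout group. Mlxipl, which encodes the lipogenic regulator ChREBP, was present at 22.9 to 37.1 FPKM in controls versus 11.3 to 16.5 FPKM (-1.09, adjusted p = 0.0658 by limma), and Cyb5r3, a cytochrome b5 reductase, at 386 to 445 FPKM versus 207 to 226 FPKM (-0.94, adjusted p = 0.0568 by limma). Among 8 genes of SREBP cleavage and sterol-regulated degradation 0 were called, the largest values being 1.18 for Rnf145 and 0.94 for Mbtps2, the site-2 protease. Rnf145 was present at 0.752, 6.81 and 5.22 FPKM in controls versus 2.30, 9.06, 11.5 and 10.1 FPKM in the MYO5B-knockout group. Its groups overlapped, and control mouse 2 and MYO5B-knockout mouse 3 held the lowest value of their groups. Mbtps2 was the only gene of the 8 whose groups did not overlap, at 1.54 to 2.23 FPKM versus 2.28 to 5.21 FPKM. This is 1 gene of 8, where 11.0% of all genes lay higher without overlap. Of 15 genes of the liver X receptor, sterol efflux and storage, 1 fell and 0 rose, with a median of -0.11, where 0.884% of all genes were called lower and 1.13% higher. Nr1h3, which encodes the sterol-sensing receptor LXR-alpha, was present at 76.4, 46.7 and 44.1 FPKM in controls versus 26.3, 12.2, 15.4 and 16.7 FPKM in the MYO5B-knockout group (-1.67, adjusted p = 0.0323 by limma).

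Marker genes of other cell states and types differed in summed level between the groups too. The summed level of 12 proliferation genes was between 105 and 146 FPKM in controls, between 266 and 436 FPKM in the MYO5B-knockout group and between 185 and 356 FPKM in the LPA-treated group, and all 12 reached 1 FPKM in each group. The sum of 10 mature enterocyte genes was between 39021 and 51584 FPKM, between 20539 and 34793 FPKM and between 31101 and 59298 FPKM in the same order. The sum of 12 leukocyte genes was between 1466 and 2396 FPKM in controls, between 50.6 and 954 FPKM in the MYO5B-knockout group and between 163 and 242 FPKM in the LPA-treated group. The sum of the proliferation genes was thus higher, and that of the leukocyte genes lower, in each tamoxifen-treated mouse than in each control mouse. Taken singly, 9 of 12 proliferation genes lay higher without overlap in MYO5B-knockout mice and 4 of 12 in LPA-treated mice, while 6 and 8 of 12 leukocyte genes lay lower and 0 and 2 higher. Of all genes tested, 11.0% lay higher and 6.20% lower without overlap in MYO5B-knockout mice, and 20.5% and 6.38% in LPA-treated mice. The part of these cell types in the levels of the sterol and fatty acid genes was not tested. For adipocytes, which also express the fatty acid branch, the defining genes Adipoq and Lep were at 0 in all 10 libraries, and 3 of 9 markers reached 1 FPKM in the MYO5B-knockout and LPA-treated groups and 2 in control mice. The sum of the 9 was between 56.7 and 124 FPKM in controls, between 82.0 and 124 FPKM in the MYO5B-knockout group and between 119 and 163 FPKM in the LPA-treated group. Cidec, a lipid droplet protein, made up most of it, at 49.1 to 161 FPKM, and Fabp4 reached 29.6 FPKM in LPA-treated mouse 5. The 3 tested adipocyte markers had positive log2 fold changes in each comparison, with a median of 3.20 between LPA-treated and control mice and 0 called, and their part in the levels of the members was not tested. The summed levels of the 10 stromal markers did not exceed 15.4 FPKM and those of the 9 pancreatic acinar markers 11.7 FPKM in any library.

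The comparison of LPA-treated with vehicle-treated MYO5B-knockout mice asks whether LPA alters the pathway once MYO5B is lost. None of the 33 members passed the test, with 0 of 15729 genes passing in either direction (0.0% higher and 0.0% lower), and at an unadjusted p under 0.05 limma found 0 members and 459 genes. On the recovered reads edgeR called 0 genes, and DESeq2 called 7 genes of which 0 were members. A fit chosen after seeing the data, without control mouse 2, MYO5B-knockout mouse 3 and LPA-treated mouse 1, called 106 genes higher and 91 lower, or 1.25%, of which 0 were members. It had 9 members at an unadjusted p under 0.05. The share of all genes at that threshold was not counted for this fit, so the 9 cannot be set against it. The median log2 fold change was 0.26 over the members and 0.11 over all genes, with 27 of 33 positive values against 60.7% of all genes. Leaving out control mouse 2 and MYO5B-knockout mouse 3, the median was 0.032 over the members, with 17 of 33 positive, and -0.11 over all genes. Without MYO5B-knockout mouse 3 and LPA-treated mouse 1 it was -0.10 over the members, with 15 of 33 positive, and -0.18 over all genes, so that the medians of members and of all genes moved together.

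For 1 member, Me1, each LPA-treated mouse lay above each vehicle-treated mouse, and for 0 members below, where 3.56% and 0.604% of all genes were so placed. Me1 was present at 35.7, 34.3 and 34.0 FPKM in the LPA-treated group and at 29.9, 19.6, 21.7 and 15.7 FPKM in the vehicle-treated group. Its log2 fold change of 0.71, with a 95% confidence interval from -0.04 to 1.46, was the largest among the members and did not pass (unadjusted p = 0.0625, adjusted p = 1 by limma). Srebf1 followed, at 27.3, 33.4 and 24.8 FPKM in the LPA-treated group against 9.69 to 39.8 FPKM in the vehicle-treated group (0.69, interval from -0.32 to 1.69). Insig2 was present at 17.5, 18.6 and 11.7 FPKM against 5.11 to 13.6 FPKM (0.66, interval from -0.26 to 1.58). In both genes the groups overlapped, and without MYO5B-knockout mouse 3 the values were 0.40 for Srebf1 and 0.35 for Insig2. Srebf1 had 1.08 without MYO5B-knockout mouse 5. The members called in the other comparisons had values of 0.15 for Acat2 (interval from -0.48 to 0.77), 0.32 for Hmgcs1 (from -0.22 to 0.86), 0.44 for Pmvk (from -0.31 to 1.18) and -0.53 for Scd2 (from -1.66 to 0.60). Single mice moved some of these. Without MYO5B-knockout mouse 3 Scd2 had -0.83 and Acat2 0.26, and without MYO5B-knockout mouse 5 they had -0.080 and 0.26. Acat2 fell to 0.0059 without MYO5B-knockout mouse 6 and to 0.060 without MYO5B-knockout mouse 7. Scd2 had -0.22 without LPA-treated mouse 4, and Pmvk had 0.25 without MYO5B-knockout mouse 6. Differences within these intervals are not shown to be absent.

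**Figure D5:**
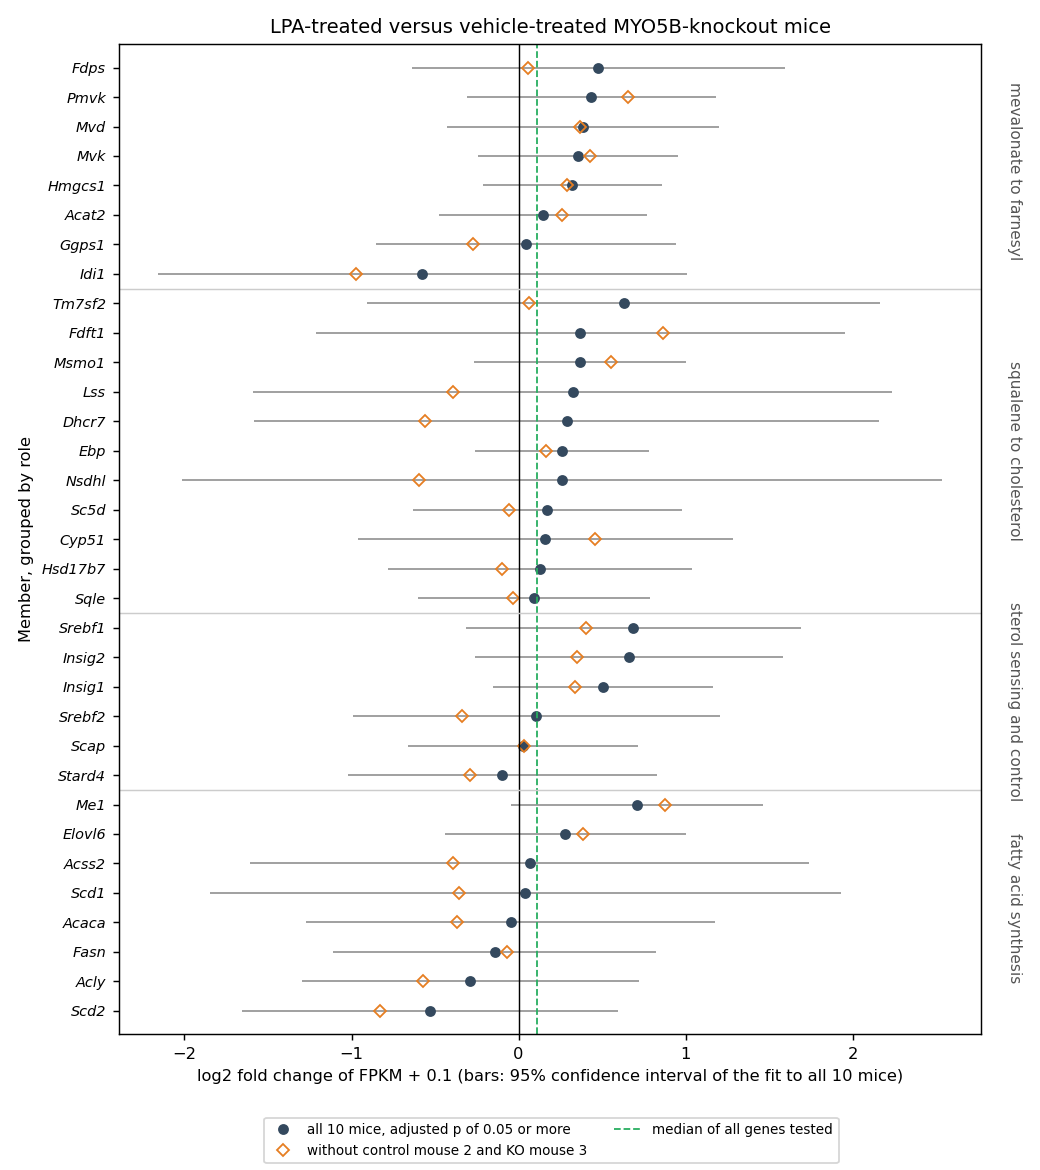
Log2 fold change of each member (rows, by role) between LPA-treated and vehicle-treated MYO5B-knockout mice, on the scale of FPKM + 0.1, with the 95% confidence interval of the fit to all 10 mice; diamonds show the fit without control mouse 2 and MYO5B-knockout mouse 3, and the dashed line is the median of all genes tested, 0.11. No point has an adjusted p under 0.05, each interval includes 0, and many diamonds lie left of their points.

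The comparison of LPA-treated MYO5B-knockout mice with control mice uses the same 3 controls as the first comparison, so the values of both are not independent. In it 3 members rose, all in the mevalonate branch, and 0 fell, where 1.54% of all genes were called higher and 0.776% lower. These were Acat2 (log2 fold change 1.58, SE 0.30, adjusted p = 0.0261 by limma), Hmgcs1 (1.30, SE 0.26, adjusted p = 0.0323 by limma) and Pmvk (1.61, SE 0.36, adjusted p = 0.0480 by limma). Hmgcs1 was present at 148, 134 and 130 FPKM and Pmvk at 82.2, 83.6 and 95.1 FPKM in the LPA-treated group, each above all 3 controls. Acat2 was called in both comparisons. Scd2, called in the first, had a log2 fold change of 1.84 here (adjusted p = 0.120 by limma). The difference between its 2 values is the -0.53 between LPA-treated and vehicle-treated mice given above, which did not pass. All 3 calls were lost on leaving out any of control mice 4 and 5 or LPA-treated mice 1, 4 and 5. All 3 were also lost after median-ratio scaling and with edgeR, each of which called Hsd17b7 as the single member, and the scaling turned the calls over all genes from 243 higher and 122 lower to 221 higher and 268 lower.

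The groups did not overlap for 17 of 33 members, each higher in the LPA-treated mice, and for 0 members lower, where 20.5% and 6.38% of all genes were so placed. The median was 1.00 over the members and 0.41 over all genes tested. Without Scd1, which is below the minimum in controls, 16 of 32 members did not overlap. Lss had a log2 fold change of 1.83, at 9.94, 4.60 and 3.51 FPKM in the LPA-treated group, and of 1.04 without control mouse 2. The fitted value of 2.31 for Scd1 is again set largely by the added 0.1. Without control mouse 2 and MYO5B-knockout mouse 3, 11 members were called higher, where 4.31% of all genes were. In LPA-treated mice the remaining members of the mevalonate branch were present at 29.2 to 41.4 FPKM (Mvk), 25.6 to 38.0 FPKM (Mvd), 4.69 to 23.6 FPKM (Idi1), 133 to 218 FPKM (Fdps) and 4.20 to 5.35 FPKM (Ggps1). Those from squalene to cholesterol were present at 47.0 to 113 FPKM (Fdft1), 24.5 to 42.1 FPKM (Sqle), 60.4 to 85.9 FPKM (Cyp51), 7.21 to 11.6 FPKM (Tm7sf2), 76.1 to 104 FPKM (Msmo1), 4.47 to 22.2 FPKM (Nsdhl), 10.9 to 16.7 FPKM (Hsd17b7), 47.7 to 60.8 FPKM (Ebp), 30.1 to 51.4 FPKM (Sc5d) and 4.45 to 15.8 FPKM (Dhcr7). Among the controllers, Insig1 was present at 67.0 to 94.3 FPKM, Srebf2 at 22.0 to 52.1 FPKM, Scap at 6.71 to 12.8 FPKM and Stard4 at 21.4 to 25.2 FPKM. In the fatty acid branch, Acly was present at 8.20 to 22.3 FPKM, Acss2 at 2.34 to 6.59 FPKM, Acaca at 1.72 to 4.99 FPKM, Fasn at 11.6 to 26.7 FPKM, Scd1 at 0.211 to 1.54 FPKM and Elovl6 at 55.8 to 90.3 FPKM. Insig1, Msmo1 and Elovl6 were among those whose lowest LPA-treated mouse lay above the highest control, and Ggps1, Acss2 and Stard4 among those that overlapped.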

How the data were processed

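RNA of isolated jejunal epithelial cells from 10 mice was sequenced after poly-A selection. The authors deposited FPKM per gene, made from reads counted on genes without a stated scaling between libraries or a stated strand setting. Their processing notes name STAR 2.5, TopHat, HTSeq 0.6.1 and DESeq2 and the builds GRCm38 and mm10. A deposited table of raw read counts for single genes served as a check: FPKM multiplied by gene length are whole multiples of 1 step per library, to within 0.0927 of a read, and 63 of 63 deposited counts equalled the recovered number. Its fold changes and p-values, and the authors' pathway enrichments, were not used.

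The log2 of FPKM + 0.1 was fitted with limma 3.58.1 (R 4.3.3) for the 15729 genes that averaged at least 0.1 FPKM, with 1 trended-variance model for the 3 groups, two-sided tests and Benjamini-Hochberg adjustment over all 15729 genes, and calls at an adjusted p of 0.05. A fold change on this scale understates that of low genes. The recovered reads were tested with edgeR 4.0.16 and DESeq2 1.42.0 as alternatives. The code was tested on simulated data. At least 10949420 reads per library lay on genes, and intervals are those of the fit. The members and the other lists were chosen with earlier results of these data known. Each member is named with its FPKM in each group. Log2 fold changes are given for members at 0.3 or more in size between MYO5B-knockout and control mice, and in the other comparisons for members called in any comparison and the 3 largest. Of the other lists, the genes called are named, or else the 2 largest. The choice of 0.3 and of the printed promoters was made after the values were seen.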

Additional observations from a re-analysis of the deposited data

Results flagged for a closer look

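Among the 4 MYO5B-knockout mice, a single mouse lay apart from the others by Dixon's test for 2 of the 33 members at the 95% level, and chance flags about 1 in 20 such groups. Fdft1 was present at 145 FPKM in MYO5B-knockout mouse 3 and between 31.2 and 48.2 FPKM in the other 3 mice, a gap of 0.851 of the whole range. Mouse 3 is 1 of the 2 libraries with few detected genes, and the other one, control mouse 2, held 122 FPKM. Scd2 was present at 45.3 FPKM in MYO5B-knockout mouse 5 and between 9.40 and 15.4 FPKM in the other 3 mice, a gap of 0.833 of the range.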

How the results depend on the processing

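Between MYO5B-knockout and control mice, where 2 members and 2.01% of all genes were called, the count of members was 1 with no filter on low values (0.836% of all genes), 4 after quantile normalization (5.11%), 0 when only the 2 groups entered the fit (0.318%), 5 with DESeq2 (12.5% of genes with an adjusted p), 6 without control mouse 2 and MYO5B-knockout mouse 3 (4.95%) and 13 with a covariate for them (15.6%). Of those 13, 12 were higher and 1, Tm7sf2, lower. In fits chosen after seeing the data it was 1 without MYO5B-knockout mouse 3 and LPA-treated mouse 1 (2.01%), and 9 without all 3 of these mice (8.1%). Median-ratio scaling and edgeR kept the count at 2 but called Hsd17b7 in place of Acat2. Leaving out each mouse in turn gave 0 to 3 members. The count of all genes, 316, ranged from 44 without control mouse 5 to 2449 with the covariate, and was 1830 with DESeq2. Between LPA-treated and control mice, where 3 members and 2.32% of all genes were called, the count of members was 5 among genes averaging at least 1 FPKM (3.82%), 1 after median-ratio scaling (3.11%), 1 with only the 2 groups (1.21%), 1 with edgeR (2.4%), 6 with DESeq2 (10.2%), 11 without control mouse 2 and MYO5B-knockout mouse 3 (8.56%) and 12 with the covariate (11.4%). The 1 member was Hsd17b7 after scaling and with edgeR, which kept 0 of the 3, and Acat2 with only the 2 groups. In the added fits it was 0 without MYO5B-knockout mouse 3 and LPA-treated mouse 1 (1.93%) and 11 without all 3 (12.1%), of which 9 were higher and 2, Acss2 and Dhcr7, lower. Leaving out each mouse gave 0 to 3. Between LPA-treated and vehicle-treated mice the count of members was 0 in each of these fits, and 0 genes were called in all but DESeq2, with 7, and the fit without all 3 mice, with 197. The causes were not tested.

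Of 38 log2 fold changes given, 35 kept their sign in every fit. Fdft1 between MYO5B-knockout and control mice (0.45) was -0.049 without MYO5B-knockout mouse 3 and LPA-treated mouse 1, -0.10 with edgeR and -0.11 with DESeq2, and -0.082 to 1.30 over fits that each left out a mouse. Srebf1 (0.38) ranged from -0.016 to 0.66. Acat2 between LPA-treated and vehicle-treated mice (0.15) was -0.012 with edgeR and -0.046 with DESeq2. No paired analysis was possible because the vehicle-treated knockout mice have just 1 number, mouse 5, in common with either other group. LPA-treated and control mice share numbers 4 and 5, which name no shared litter or day, and deviations correlated at 0.10 and -0.36. With the mouse number as a block in these 4 mice 0 of 15729 genes were called, and so 0 members. At an unadjusted p under 0.05 there were 18 members, and the share of all genes at that threshold was not counted, so this fit says nothing about the members.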
